A study of Mus musculus with 18 samples.

Results

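The genes described here encode the non-collagen matrix of the laryngeal lamina propria. They were listed by symbol and number 47 of the 54532 genes in the deposited count table. All 47 were found, and all 47 passed the low-count filter that left 17537 genes for testing. By role they are 13 elastic fibre genes, 8 proteoglycans, 6 hyaluronan genes, 8 glycoproteins and matricellular proteins, 6 remodelling enzymes and inhibitors, and 6 TGF-beta ligands and latent TGF-beta binding proteins. Whole larynges of male C57BL6/J mice aged 8 to 9 weeks were profiled by mRNA sequencing in 18 libraries. The mice spent 1 hour a day, 5 days a week, for 4 weeks in an inEXPOSE whole-body inhalation chamber. The 3 groups of 6 libraries differed in what was inhaled, which was room air (air), smoke of the 3R4F reference cigarette (smoke) or aerosol of the JUUL Virginia tobacco e-cigarette (e-cigarette). The labels name no engineered allele. A whole larynx holds epithelium, glands, cartilage and muscle beside the lamina propria, so each value is an average over these tissues.

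The lamina propria is the connective tissue layer under the vocal fold epithelium, and its fibres and ground substance give the fold its elasticity and viscosity. Elastic fibres form when elastin is laid on microfibrils of fibrillin and is then crosslinked by lysyl oxidases, with fibulins, EMILINs and microfibril-associated proteins bound along the way. Small leucine-rich proteoglycans space collagen fibrils, hyaluronan binds water, and latent TGF-beta is held on the microfibrils by its binding proteins until it is released.

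Nothing in the labels ties a library to a single mouse, so p-values measure the spread between these libraries, part of which may be technical. Depth per library, as total counts in M, ranged from 15.6 to 17.1 for air, from 15.9 to 20.3 for smoke and from 16.7 to 22.5 for e-cigarette. The 47 matrix genes together took 0.410 ± 0.0562% of counts in air, 0.514 ± 0.109% in smoke and 0.477 ± 0.141% in e-cigarette (mean ± SD, n = 6 each). Levels are given as CPM, counts per M after TMM scaling of library size. A gene is called, and is said to have risen or fallen, at an adjusted p below 0.05 in edgeR's quasi-likelihood test over all 17537 genes. Smoke versus air and e-cigarette versus air share the 6 air libraries, so their values stand side by side and are not independent. Libraries stood apart in tissue content before any matrix gene is considered. The summed level of 20 cartilage markers was 231 to 339 CPM in air 4, 5 and 6 and 788 to 1159 CPM in air 1, 2 and 3, against 650 to 1755 CPM in smoke and 576 to 2074 CPM in e-cigarette. The sum of 14 thyroid markers, genes of a gland that adjoins the larynx, ranged from 57738 to 99374 CPM over the air libraries and from 58476 to 95971 CPM over the smoke libraries. In e-cigarette libraries 1 and 3 it was 27104 and 29438 CPM, and in libraries 2, 4, 5 and 6 it was 839, 153, 163 and 2992 CPM. None of these cartilage and thyroid markers was at 0 in any library. The sum of 20 markers of glandular acini was 3434 to 15142 CPM in air 4, 5 and 6 and 40629 to 53289 CPM in air 1, 2 and 3, against 43535 to 58091 CPM in smoke and 42909 to 107731 CPM in e-cigarette, and 5 of the 20 (Pip, Smgc, Bpifa2, Prol1 and Smr3a) were at 0 in at least 1 library. Of the 17 acinar markers tested 3 were higher after smoke (17.6%, against 0.975% of all genes) and 8 after e-cigarette aerosol (47.1%, against 12.1%). Their median log2 fold changes were 1.30 and 1.58, and their part in the matrix gene results was not tested. The sum of 16 fast skeletal muscle markers was 22755 to 39948 CPM in air, 31889 to 45093 CPM in smoke and 40505 to 53045 CPM in e-cigarette, which lay wholly above air. Of the 16, 11 were higher after e-cigarette aerosol (68.8%, against 12.1% of all genes) and none was called after smoke in edgeR (4 with an unadjusted p below 0.05).

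In air, the most abundant matrix messages per length were those of Sparc, the collagen-binding glycoprotein osteonectin, and Dcn, the proteoglycan decorin. On the scale of CPM per kilobase of gene length they stood at 136 ± 43.2 and 121 ± 24.3 (mean ± SD, n = 6), followed by the metalloproteinase inhibitors Timp2 at 62.0 ± 11.4 and Timp3 at 51.3 ± 10.4. Elastic fibre genes lay lower on the same scale, from Mfap4 at 13.1 ± 5.08 and Eln at 5.91 ± 2.63 down to Fbn1 at 3.87 ± 0.760 and Fbn2 at 0.0936 ± 0.0225. The lowest 4 genes were Fbn2 and the 3 hyaluronan synthases, Has3 at 1.000 ± 0.205, Has2 at 0.860 ± 0.299 and Has1 at 0.460 ± 0.394. Most neighbours in this order overlapped: all 6 air libraries of a gene lay above all 6 of the next gene only for Dcn over Timp2 and for Has1 over Fbn2. The spread within air differed widely between genes. The coefficient of variation was 11.1% for Tnc, 28.0% for the median gene and 116% for Thbs1, whose mean is set by library air 3.

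**Figure D1:**
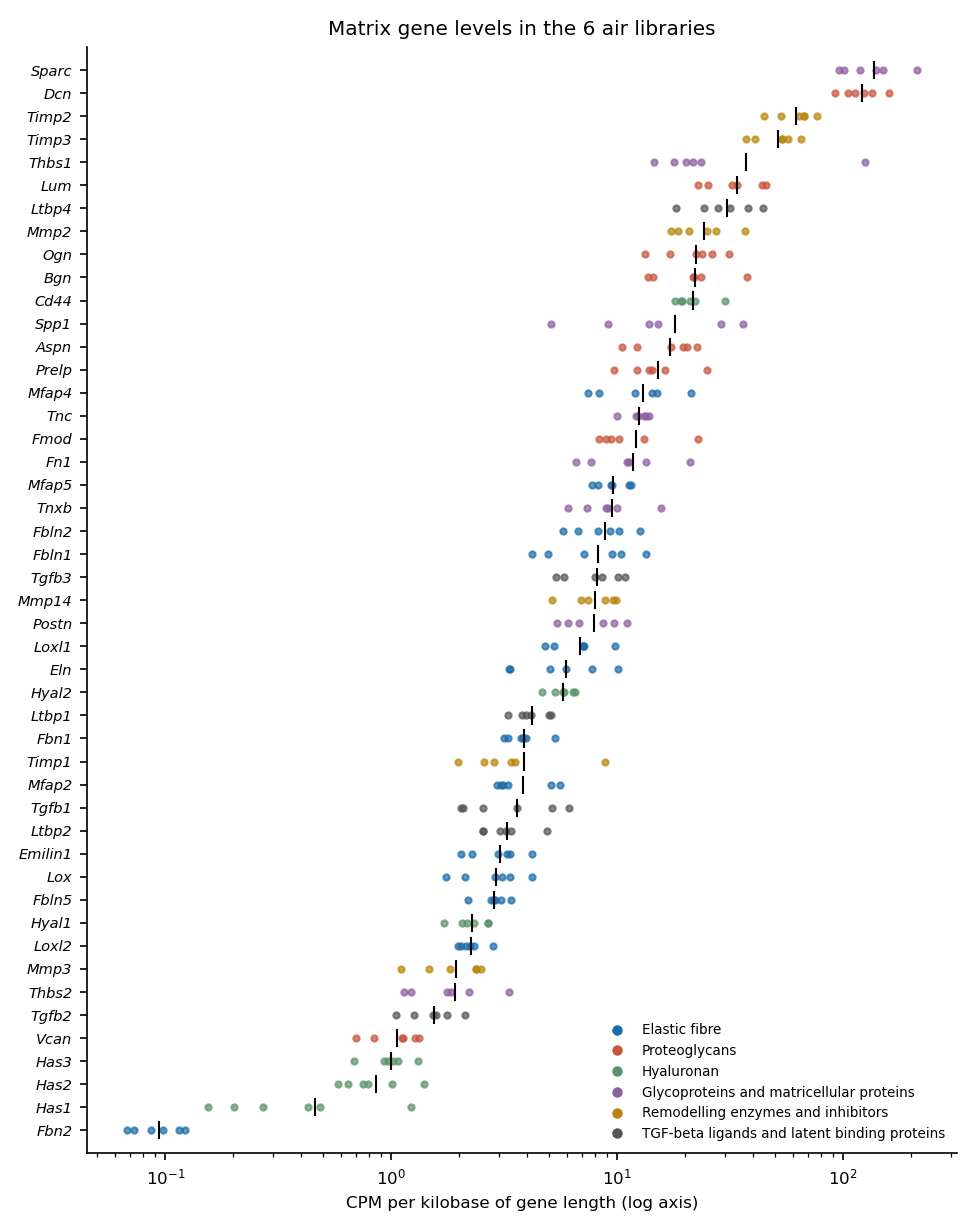
Level of each of the 47 matrix genes in the 6 air libraries (points, coloured by role) with the mean (black bar), as CPM per kilobase of gene length on a log axis. Sparc and Dcn lie at the top and Fbn2 at the bottom, and the single high point of Thbs1 is library air 3.

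After cigarette smoke 3 of the 47 matrix genes rose (6.38%, against 0.975% of all genes), the microfibril genes Fbn1 and Mfap2 and the growth factor gene Tgfb2, and none fell (against 0.616% of all genes). In edgeR, 26 of the 47 had an unadjusted p below 0.05, 3 of them lower than air, and DESeq2 called 1 lower (Has1) and voom 0. After e-cigarette aerosol 15 rose (31.9%, against 12.1% of all genes) and 4 fell (8.51%, a share below the 13.0% of all genes). The increases were in microfibril genes (Fbn1, Fbn2, Mfap2, Mfap4, Mfap5), the crosslinking enzyme Lox, proteoglycans (Dcn, Lum, Fmod, Ogn, Vcan), Thbs2, Mmp2, Tgfb2 and Tgfb3. The decreases were in Tnc, Thbs1, Tgfb1 and Has1. Between the exposures 3 genes, Tnc, Timp3 and Loxl1, were higher in smoke than in e-cigarette (6.38%, a share below the 10.4% of all genes), and none was lower (against 6.10%). On the lower side 1 gene, Has2, had an unadjusted p below 0.05 in edgeR, and DESeq2 called 0 and voom 1.

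In all, 21 matrix genes were called in at least 1 comparison and 26 in none, and the 3 called after smoke were also called after e-cigarette aerosol. The same counts were not taken over all genes. Of all genes 1.59% were called after smoke, 25.1% after e-cigarette aerosol and 16.5% between the exposures. The median log2 fold change of the 47 genes was 0.44 after smoke, 0.38 after e-cigarette aerosol and 0.03 between the exposures, while that of all genes was within 0.01 of 0 in each comparison. Log2 fold changes were above 0 for 38 of the 47 genes in each comparison with air. In bulk tissue, fewer cells of a type and less RNA per cell cannot be told apart.

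The group values rested on libraries that differed among themselves in a shared way. In e-cigarette, library 6 was the lowest of the 6 for 36 of the 47 genes and library 4 the highest for 24. In smoke, libraries 1 and 2 were lowest for 23 and 17 genes and library 5 highest for 29. In air, library 5 was lowest for 23 genes and library 6 for 12, and libraries 1 and 3 were highest for 20 and 12. Tissue markers moved alongside in part. Cartilage markers summed to 2074 CPM in e-cigarette 4 and 649 CPM in e-cigarette 6, to 1755 CPM in smoke 5 and 650 and 722 CPM in smoke 1 and 2, and to 231 CPM in air 5. The lowest cartilage sum in e-cigarette, 576 CPM, was in a library other than e-cigarette 6. The 25 fibroblast identity markers, none of which is a matrix gene of the set and none of which was at 0, summed to 1744 CPM in e-cigarette 4 and 1009 CPM in e-cigarette 6. Their range was 1037 to 1329 CPM in air, 1111 to 1502 CPM in smoke and 1009 to 1744 CPM in e-cigarette.

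**Figure D2:**
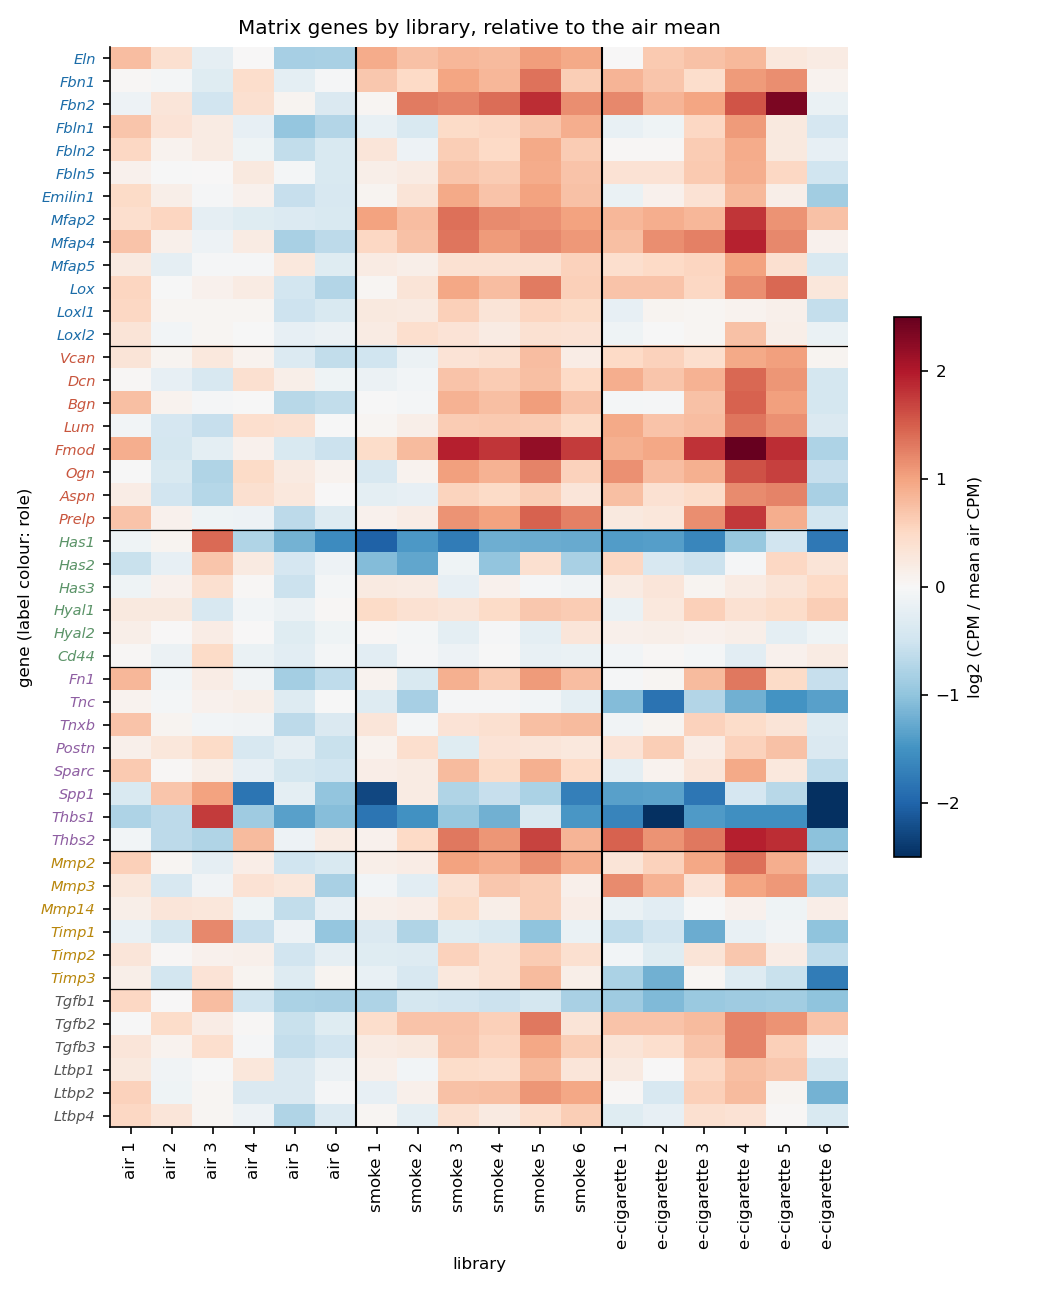
Colour gives the log2 ratio of each gene's CPM to its mean in air for 47 genes (rows, grouped and coloured by role) in 18 libraries (columns). Column e-cigarette 6, the lowest of its group for 36 genes, and columns smoke 1 and 2 are paler or bluer than the rest of their groups, and in the other e-cigarette columns the rows of Tnc, Thbs1, Has1 and Tgfb1 are blue where most rows are red.

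Among the 13 elastic fibre genes, the 2 that rose after smoke in edgeR (15.4%, against 0.975% of all genes) belong to the microfibril scaffold. DESeq2 called Eln, Fbn1, Fbn2, Mfap2 and Mfap4 higher, and voom called these and Loxl1 (2.82% and 4.34% of all genes). All 13 had positive log2 fold changes (median 0.67, 12 with an unadjusted p below 0.05). Mfap2 (ENSMUSG00000060572, GRCm38 chromosome 4, 141010418 to 141015984) encodes the microfibril-associated glycoprotein MAGP1. Its level was 3.56 to 6.73 CPM (median 3.89) in air and 7.98 to 12.1 CPM (median 9.83) in smoke, so that every smoke library lay above every air library. Mfap2 rose 2.13-fold (log2 fold change 1.09, SE 0.20, adjusted p = 0.0128). Fbn1 (ENSMUSG00000027204, chromosome 2, 125300594 to 125507993), the fibrillin-1 gene of microfibrils, was at 38.2 to 64.1 CPM (median 45.8) in air and 66.0 to 121 CPM (median 78.9) in smoke, again without overlap. It rose 1.81-fold (log2 fold change 0.86, SE 0.18, adjusted p = 0.023). Smoke lay wholly above air for 1.54% of all genes and for 3 of the 47 matrix genes, Fbn1, Mfap2 and the hyaluronidase gene Hyal1. Leaving out single libraries, Mfap2 was called in all 18 fits, and Fbn1 was not called without air 5, air 6, smoke 3, smoke 4 or smoke 5. Eln, which encodes elastin, was at 26.8 to 81.4 CPM (median 44.4) in air and 79.3 to 98.3 CPM (median 87.9) in smoke. All 6 smoke libraries were above the air median, air 1 fell within the smoke range, and the test was not passed (log2 fold change 0.88, SE 0.23, adjusted p = 0.0556). Eln was called by DESeq2 and voom, and by edgeR without air 1 and without air 2. The other 10 lay between 0.32 (Loxl2) and 1.25 (Fbn2, adjusted p = 0.0621).

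After e-cigarette aerosol 6 of the 13 elastic fibre genes rose (46.2%, against 12.1% of all genes) and none fell in edgeR (8 with an unadjusted p below 0.05, none of them lower, and 0 called lower by DESeq2 or voom). Mfap2 was at 7.73 to 16.1 CPM (median 8.54), wholly above air as were 4.50% of all genes, and rose 2.12-fold (log2 fold change 1.08, SE 0.20, adjusted p = 5.11e-04). Fbn1 was at 49.9 to 104 CPM (median 80.0), with 4 libraries above the air maximum and e-cigarette 3 and 6 inside the air range, and rose 1.69-fold (log2 fold change 0.76, SE 0.18, adjusted p = 0.00368). Mfap4, which encodes a microfibril-binding glycoprotein, went from 14.3 to 41.0 CPM (median 25.2) in air to 27.0 to 95.9 CPM (median 56.9). It rose by a log2 fold change of 1.17 (SE 0.28, adjusted p = 0.00477), with e-cigarette 4 highest and e-cigarette 6 lowest. Fbn2, the fibrillin-2 gene, known from developing tissue, was scarce at 0.705 to 1.29 CPM (median 0.963) in air and 0.875 to 5.02 CPM (median 2.10) in e-cigarette (log2 fold change 1.31, SE 0.34, adjusted p = 0.00775). Lox, a lysyl oxidase that crosslinks elastin and collagen, was at 8.41 to 20.3 CPM (median 14.4) in air and 17.0 to 37.8 CPM (median 22.9) in e-cigarette (log2 fold change 0.85, SE 0.24, adjusted p = 0.012). Mfap5, the gene of the related MAGP2, rose by 0.47 (adjusted p = 0.0359), and leaving out single libraries kept this call only for air 1, air 5, e-cigarette 6 and the smoke libraries other than smoke 4. Eln did not pass the edgeR test (47.9 to 83.6 CPM (median 66.6), log2 fold change 0.48, SE 0.23, adjusted p = 0.134), while voom called it higher and DESeq2 did not. The fibulin genes Fbln1, Fbln2 and Fbln5, Emilin1, Loxl1 and Loxl2 lay between -0.055 and 0.44 and did not pass either.

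Mfap2 was not called between the exposures (log2 fold change 0.0082, SE 0.19, adjusted p = 0.982), with a 95% interval of the log2 difference of -0.39 to 0.41. The corresponding interval for Fbn1 was -0.27 to 0.46. Loxl1, a lysyl oxidase needed for elastic fibre renewal, was called between them. It was at 15.8 to 32.2 CPM (median 23.2) in air, 26.4 to 34.2 CPM (median 29.9) in smoke and 14.9 to 24.5 CPM (median 23.5) in e-cigarette, and all smoke libraries lay above all e-cigarette libraries, as 6.65% of all genes did. Its log2 difference was 0.47 (SE 0.15, adjusted p = 0.0379), and the call was lost without any 1 of e-cigarette 1, 2 and 6 and smoke 3, 4, 5 and 6. With the mean log2 level of the endothelial markers as a covariate it was 0.17 (adjusted p = 0.579). The Loxl1 call was also lost with a replicate block, with the thyroid or 4 composition covariates and without e-cigarette 2, 4, 5 and 6. The 12 endothelial markers summed to 569 to 690 CPM in smoke and 356 to 483 CPM in e-cigarette.

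**Figure D3:**
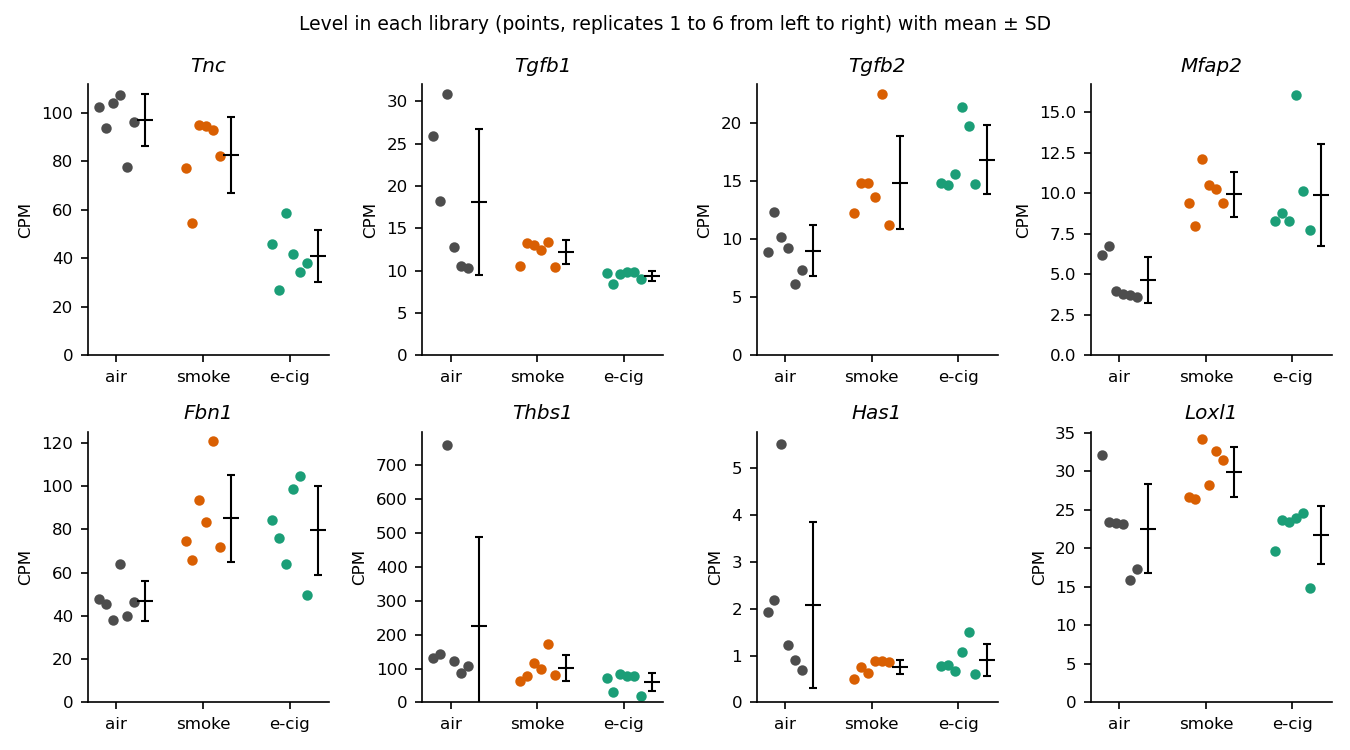
CPM of 8 matrix genes in each library (points, replicates 1 to 6 from left to right within a group) with mean ± SD (black, n = 6; bars below 0 are not drawn). Tnc and Tgfb1 are lowest in e-cigarette, Mfap2 is above air in both exposures, and Thbs1 and Has1 have a single high air library, air 3.

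Of the 8 proteoglycan genes none was called after smoke in edgeR (2 with an unadjusted p below 0.05, 1 called by DESeq2 and 1 by voom, Fmod), and 5 rose after e-cigarette aerosol (62.5%, against 12.1% of all genes). All 8 had positive log2 fold changes in both comparisons, with medians of 0.53 and 0.84. Dcn (ENSMUSG00000019929, chromosome 10, 97479609 to 97518143) encodes decorin, which binds collagen fibrils and TGF-beta. It was at 535 to 937 CPM (median 691) in air, 636 to 1194 CPM (median 1052) in smoke and 526 to 1923 CPM (median 1306) in e-cigarette. In e-cigarette 5 libraries stood above the air maximum, while e-cigarette 6, at 526 CPM, was below the air minimum. Dcn rose 1.82-fold after e-cigarette aerosol (log2 fold change 0.86, SE 0.24, adjusted p = 0.011) and was not called after smoke (log2 fold change 0.44, SE 0.23, adjusted p = 0.308). Lum, its neighbour on chromosome 10 at a distance of 47.0 kb, encodes lumican, another collagen-binding member of the family. Lum was at 55.6 to 112 CPM (median 80.7) in air, 85.4 to 130.0 CPM (median 122) in smoke and 64.3 to 209 CPM (median 151) in e-cigarette. It rose 1.80-fold after e-cigarette aerosol (log2 fold change 0.84, SE 0.23, adjusted p = 0.0111), while the change after smoke did not pass (log2 fold change 0.45, SE 0.23, adjusted p = 0.28). Fmod, the fibromodulin gene, was at 27.6 to 75.1 CPM (median 32.3) in air, 54.9 to 183 CPM (median 136) in smoke and 23.3 to 261 CPM (median 109) in e-cigarette, and had the highest log2 fold change of the set after e-cigarette aerosol, 1.58 (adjusted p = 0.0205). After smoke its value was 1.61 (adjusted p = 0.0794).

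Ogn, which encodes the fibril-binding osteoglycin, rose by 1.09 (adjusted p = 0.0262) and Vcan, the large hyaluronan-binding proteoglycan versican, by 0.63 (adjusted p = 0.028) after e-cigarette aerosol. Ogn was at 34.0 to 80.3 CPM (median 59.0) in air and 38.3 to 188 CPM (median 116) in e-cigarette, and Vcan at 10.0 to 19.2 CPM (median 16.2) and 16.2 to 31.4 CPM (median 22.4). The groups overlapped for each of the 5 proteoglycans that rose, and e-cigarette 6 was the lowest e-cigarette library for all 5. Leaving out single libraries, Dcn and Lum were called in all 18 fits, Fmod was not called without e-cigarette 4, Ogn without air 2, air 3, e-cigarette 4 or e-cigarette 5, and Vcan without air 5, air 6, e-cigarette 4 or e-cigarette 5. Without air 1, 2 and 3 Vcan was called, and Dcn, Lum, Fmod and Ogn were not. Without air 4, 5 and 6 Dcn, Lum and Ogn were called, and Fmod and Vcan were not. The remaining 3, the biglycan gene Bgn, the asporin gene Aspn and Prelp, did not pass (0.61 to 0.83 after e-cigarette, adjusted p 0.0898 to 0.181). Between the exposures none of the 8 was called in edgeR, with 0 at an unadjusted p below 0.05 and 0 called by DESeq2 or voom. The log2 difference was -0.43 for Dcn (95% interval -0.92 to 0.064) and -0.39 for Lum (-0.87 to 0.083). Cartilage cells also make several of these proteoglycans. With the mean log2 level of the cartilage markers as a covariate the e-cigarette values were 0.46 for Fmod, 0.57 for Dcn, 0.76 for Lum, 0.77 for Ogn and 0.14 for Vcan, and none was called (adjusted p 0.0993 to 0.565).

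Of the 6 hyaluronan genes 1, Has1, fell after e-cigarette aerosol (16.7%, near the 13.0% of all genes), and none was called after smoke in edgeR (2 with an unadjusted p below 0.05, Has1 and Hyal1; DESeq2 called both and voom called Hyal1). Has1 (ENSMUSG00000003665, chromosome 17, 17843323 to 17855205), a hyaluronan synthase, was at 0.701 to 5.52 CPM (median 1.58) in air, 0.510 to 0.889 CPM (median 0.817) in smoke and 0.598 to 1.5 CPM (median 0.790) in e-cigarette. Library air 3 was far above the other air libraries, which ranged from 0.701 to 2.19 CPM. Has1 fell after e-cigarette aerosol (log2 fold change -1.19, SE 0.40, adjusted p = 0.0335) and was not called after smoke (log2 fold change -1.44, SE 0.41, adjusted p = 0.0667). The e-cigarette call was lost without any 1 of air 2, air 3 and e-cigarette 1, 2, 3 and 6. Without air 3 the value was -0.63, and without air 1, 2 and 3 it was -0.083 (adjusted p = 0.89). Has2, the synthase of the longest chains, was at 2.47 to 5.90 CPM (median 3.25) in air, 1.48 to 4.79 CPM (median 1.96) in smoke and 2.51 to 5.24 CPM (median 4.06) in e-cigarette and passed no test (log2 fold change -0.52, SE 0.29, adjusted p = 0.336 after smoke; log2 fold change 0.13, SE 0.29, adjusted p = 0.779 after e-cigarette). Has3, the synthase found in many epithelia, differed by 0.046 after smoke (SE 0.14, adjusted p = 0.89) and by 0.28 after e-cigarette (SE 0.14, adjusted p = 0.154). Cd44, the main hyaluronan receptor, was at 122 to 204 CPM (median 137) in air, 122 to 147 CPM (median 132) in smoke and 122 to 168 CPM (median 146) in e-cigarette. Its log2 fold changes were -0.13 (SE 0.11, adjusted p = 0.541) and 0.00031 (SE 0.11, adjusted p = 0.999), with 95% intervals of -0.35 to 0.10 and -0.23 to 0.23. Of the hyaluronidases, which cut the polymer, Hyal1 was at 6.48 to 10.2 CPM (median 8.48) in air and 10.7 to 13.8 CPM (median 12.0) in smoke without overlap and missed the threshold (0.50, adjusted p = 0.062). Hyal2 lay at -0.028 after smoke and 0.037 after e-cigarette aerosol.

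Tnc showed the smallest p of any matrix gene in the e-cigarette comparison. Tnc (ENSMUSG00000028364, chromosome 4, 63959785 to 64047015) encodes tenascin-C, a matricellular glycoprotein known from wound edges and tendon. Its level was 77.5 to 107 CPM (median 99.3) in air, 54.4 to 95.1 CPM (median 87.4) in smoke and 27.0 to 58.4 CPM (median 39.9) in e-cigarette. Every e-cigarette library lay below every air library, as did 6.00% of all genes, and e-cigarette 3 alone lay above the lowest smoke library, smoke 2. Tnc fell by a factor of 2.37 after e-cigarette aerosol (log2 fold change -1.24, SE 0.16, adjusted p = 1.78e-05) and was not called after smoke (log2 fold change -0.23, SE 0.15, adjusted p = 0.427). Smoke exceeded e-cigarette by a log2 difference of 1.02 (SE 0.16, adjusted p = 2.30e-04). The decrease after e-cigarette was called in all 18 fits that left out a library and in 15 of 17 other alternatives, the exceptions being the thyroid covariate (-0.82, adjusted p = 0.24) and 4 composition covariates together (-0.84, adjusted p = 0.0876). The 2 e-cigarette libraries with most thyroid transcripts, 1 and 3, had the highest Tnc of their group, 45.8 and 58.4 CPM, against 27.0 to 41.9 CPM in the other 4. With only these 2 kept, the log2 fold change from air was -0.91 (adjusted p = 0.0128), and the difference from smoke was 0.66 and no longer called (adjusted p = 0.135).

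Among the other 7 glycoprotein and matricellular genes 1 rose and 1 fell after e-cigarette aerosol, near the shares of all genes (12.1% and 13.0%). None was called after smoke in edgeR (4 with an unadjusted p below 0.05, 0 called by voom, and 0 by DESeq2, which gave no test for Thbs1). Thbs1 (ENSMUSG00000040152, chromosome 2, 118111876 to 118127133) encodes thrombospondin-1, which can release TGF-beta from its latent form. It was at 87.9 to 759 CPM (median 127) in air, 63.5 to 173 CPM (median 89.7) in smoke and 19.9 to 83.9 CPM (median 74.5) in e-cigarette, with all e-cigarette libraries below all air libraries. Air 3 alone, at 759 CPM, set the air mean of 225 CPM, the other 5 lying between 87.9 and 143 CPM. Thbs1 fell after e-cigarette aerosol (log2 fold change -1.91, SE 0.55, adjusted p = 0.0182) and kept its call in each of the 18 fits that left out a library and in voom, while DESeq2 gave no adjusted p for it. Without air 3 the value was -0.99, and without air 1, 2 and 3 it was -0.83 and not called (adjusted p = 0.179). Thbs2, its relative in collagen fibril assembly, went the other way, from 7.95 to 23.3 CPM (median 12.6) in air to 14.4 to 43.2 CPM (median 26.6) in smoke and 6.63 to 51.5 CPM (median 35.2) in e-cigarette. It rose after e-cigarette aerosol (log2 fold change 1.35, SE 0.39, adjusted p = 0.019), with e-cigarette 6 below the air minimum, and was at 1.02 after smoke (adjusted p = 0.164). Fn1, the fibronectin gene, was at 76.8 to 245 CPM (median 130.4) in air and passed no test (log2 fold change 0.59, SE 0.33, adjusted p = 0.338 after smoke; log2 fold change 0.47, SE 0.33, adjusted p = 0.322 after e-cigarette). Spp1, which encodes osteopontin, was at 8.42 to 59.3 CPM (median 23.9), 6.12 to 34.3 CPM (median 17.4) and 2.81 to 22.2 CPM (median 11.6) in air, smoke and e-cigarette, with log2 fold changes of -0.77 (SE 0.52, adjusted p = 0.431) and -1.25 (SE 0.53, adjusted p = 0.0943). Postn, the periostin gene of fibroblasts under load, was at 0.20 (SE 0.19, adjusted p = 0.576) and 0.39 (SE 0.19, adjusted p = 0.136). Sparc and the tenascin-X gene Tnxb were at 0.53 and 0.45 after smoke and 0.20 each after e-cigarette, with no call.

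Of the 6 remodelling genes 1 rose after e-cigarette aerosol (16.7%, near the 12.1% of all genes) and none was called after smoke in edgeR (2 with an unadjusted p below 0.05, Mmp2 called by DESeq2 and 0 by voom). Mmp2, a gelatinase of fibroblasts, was at 58.2 to 124 CPM (median 77.0) in air, 90.4 to 183 CPM (median 153) in smoke and 67.2 to 214 CPM (median 138) in e-cigarette. It rose by 0.74 (adjusted p = 0.043) after e-cigarette aerosol and was at 0.77 after smoke (adjusted p = 0.115). The e-cigarette call for Mmp2 was kept in 6 of the 18 fits that left out a library, those without air 1, e-cigarette 1, e-cigarette 6 or smoke 1, 2 or 3. Timp3, the inhibitor that stays bound to the matrix, was at 303 to 529 CPM (median 438) in air, 318 to 723 CPM (median 482) in smoke and 125 to 431 CPM (median 262) in e-cigarette. Smoke exceeded e-cigarette by a log2 difference of 0.87 (SE 0.25, adjusted p = 0.0236), with smoke 1 and 2 inside the e-cigarette range. Against air Timp3 passed neither edgeR test (0.22, adjusted p = 0.666 after smoke; -0.65, adjusted p = 0.0648 after e-cigarette). After e-cigarette it was called lower by DESeq2, by voom and with a replicate block. The Timp3 call between the exposures was lost without smoke 5 and without e-cigarette 2. It was also lost without the low-count filter, in the fit of only the 2 groups and with the endothelium, thyroid or 4 composition covariates. Without e-cigarette 2, 4, 5 and 6 it was lost as well. Mmp3, stromelysin-1, was at 1.99 to 4.50 CPM (median 3.77) in air and 2.12 to 7.97 CPM (median 6.63) in e-cigarette and lay at the threshold (log2 fold change 0.75, SE 0.27, adjusted p = 0.0501). After smoke it did not pass (log2 fold change 0.28, SE 0.27, adjusted p = 0.596). Timp1, an inhibitor induced in many injured tissues, was at 1.75 to 7.82 CPM (median 2.77) in air with air 3 highest, and it passed neither the smoke test (log2 fold change -0.46, SE 0.30, adjusted p = 0.411) nor the e-cigarette test (log2 fold change -0.54, SE 0.30, adjusted p = 0.201). Mmp14, a membrane-bound collagenase, and Timp2 were called in no comparison of the reported fit. Mmp14 was called higher in smoke than in e-cigarette by voom, in the fit of only the 2 groups and with the cartilage covariate. The same call came without air 5, without air 1, 2 and 3 and without air 4, 5 and 6. Mmp14 was also called higher after smoke without air 1, 2 and 3. Timp2 was called lower after e-cigarette aerosol with the fibroblast covariate.

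The 3 TGF-beta ligand genes parted after e-cigarette aerosol, with Tgfb1 lower and Tgfb2 and Tgfb3 higher than in air. Tgfb1 (ENSMUSG00000002603, chromosome 7, 25687002 to 25705077) was at 10.3 to 30.8 CPM (median 15.5) in air, 10.4 to 13.4 CPM (median 12.8) in smoke and 8.37 to 9.87 CPM (median 9.65) in e-cigarette. All e-cigarette libraries lay below all air and all smoke libraries. Tgfb1 fell by a factor of 1.92 (log2 fold change -0.94, SE 0.22, adjusted p = 0.00353) and was not called after smoke (log2 fold change -0.57, SE 0.22, adjusted p = 0.152) or between the exposures (log2 fold change 0.37, SE 0.22, adjusted p = 0.269). It was called higher in smoke than in e-cigarette in the fit of only the 2 groups and without air 1, 2 and 3. These fits called 11.4% and 12.4% of all genes higher. The air libraries were split: air 1, 2 and 3 were at 25.9, 18.2 and 30.8 CPM and air 4, 5 and 6 at 12.8, 10.5 and 10.3 CPM. Without air 1, 2 and 3 the e-cigarette value was -0.26 (adjusted p = 0.144), and without air 4, 5 and 6 it was -1.42 (adjusted p = 1.44e-05). The 14 macrophage markers, of which Marco was at 0 in some libraries of each group, summed to 5061 to 7001 CPM in air 1, 2 and 3 and 2155 to 2775 CPM in air 4, 5 and 6, and to 4033 to 4557 CPM in smoke and 5146 to 10816 CPM in e-cigarette, where Tgfb1 was lowest. The sum does not stand for the whole list. Of the 13 markers tested 3 were higher after e-cigarette aerosol (23.1%, against 12.1% of all genes), with a median log2 fold change of 0.20. Between the exposures 8 of the 13 had a log2 difference above 0, towards smoke (median 0.07), and 2 were called lower in smoke. The part of these markers in the Tgfb1 result was not tested.

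Tgfb2 (ENSMUSG00000039239, chromosome 1, 186622792 to 186705989), an isoform prominent in development and in mesenchyme, was at 6.09 to 12.3 CPM (median 9.04) in air, 11.2 to 22.5 CPM (median 14.2) in smoke and 14.7 to 21.4 CPM (median 15.2) in e-cigarette. It rose 1.87-fold after e-cigarette aerosol without overlap with air (log2 fold change 0.90, SE 0.18, adjusted p = 8.94e-04), a call kept in all 18 fits that left out a library. After smoke it rose 1.65-fold (log2 fold change 0.72, SE 0.18, adjusted p = 0.0453), with smoke 1 and 6 inside the air range. This call was kept in 3 of the 18, those without air 2, e-cigarette 4 or e-cigarette 6. Tgfb3 was at 18.2 to 36.8 CPM (median 28.0) in air and 25.0 to 64.7 CPM (median 39.1) in e-cigarette and rose by 0.58 (adjusted p = 0.0464), a call kept in 4 of the 18, those without air 1, air 3, e-cigarette 6 or smoke 1. The latent TGF-beta binding protein genes Ltbp1, Ltbp2 and Ltbp4 lay between 0.27 and 0.65 after smoke and between 0.020 and 0.34 after e-cigarette and were not called. Matrix genes with e-cigarette wholly below air were thus Tnc, Thbs1 and Tgfb1 (3 of 47, against 6.00% of all genes). Those with e-cigarette wholly above air were Mfap2 and Tgfb2 (2 of 47, against 4.50%). Smoke was wholly above e-cigarette for Loxl1 and Tgfb1 (2 of 47, against 6.65%). These shares of the matrix genes are near or below those of all genes. Wholly lower groups were 0.890% of all genes for smoke against air and 2.72% for smoke against e-cigarette, and included no matrix gene.

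The promoters of Tgfb1, Tgfb2 and Tnc are shown because the 2 ligand genes moved in opposite directions and Tnc had the smallest p. Each sequence is the 250 bases before a RefSeq transcript start on GRCm38.p6, in the direction of transcription. The windows are chr7:25686752-25687001 (plus strand) for Tgfb1, chr1:186705990-186706239 (minus strand) for Tgfb2 and chr4:64047016-64047265 (minus strand) for Tnc. Tnc has another RefSeq start, whose window, chr4:64046937-64047186, is not printed. Capitals mark matches on either strand to the TATA box letters TATAAA, the GC box letters GGGCGG or the AP-1 letters TGANTCA.
Tgfb1: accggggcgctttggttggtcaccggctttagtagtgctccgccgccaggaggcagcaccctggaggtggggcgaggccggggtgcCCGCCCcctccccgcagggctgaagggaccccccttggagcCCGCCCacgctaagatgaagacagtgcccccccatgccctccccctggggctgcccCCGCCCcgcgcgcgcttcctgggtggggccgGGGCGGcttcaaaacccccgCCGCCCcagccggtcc
Tgfb2: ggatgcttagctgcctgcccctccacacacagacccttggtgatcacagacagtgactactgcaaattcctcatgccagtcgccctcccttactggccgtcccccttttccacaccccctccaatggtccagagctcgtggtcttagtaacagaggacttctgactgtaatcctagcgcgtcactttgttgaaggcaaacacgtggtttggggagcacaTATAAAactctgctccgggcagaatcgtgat
Tnc: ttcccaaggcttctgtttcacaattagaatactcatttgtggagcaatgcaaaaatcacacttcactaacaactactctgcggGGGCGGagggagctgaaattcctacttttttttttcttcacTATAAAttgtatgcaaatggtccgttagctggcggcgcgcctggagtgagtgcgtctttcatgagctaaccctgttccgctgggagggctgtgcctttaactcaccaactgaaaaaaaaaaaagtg
The Tgfb1 window held 5 GC box matches and no TATAAA, the Tgfb2 window 1 TATAAA that starts 31 bases before the transcript start and no GC box, and the printed Tnc window 1 of each. The Tnc TATAAA starts 126 bases before the transcript start of the printed window and 205 bases before that of the other Tnc window. RefSeq's table held promoter windows for 32 of the 47 genes. A GC box match was found in 17 of the 32 (53.1%), against 35.4% of 27025 genes in the table (32.7% of 32851 windows). A TATAAA match was found in 8 of 32 (25%), against 14.3% of genes (12.4% of windows), and an AP-1 match in 2 of 32, Mmp3 and Tnxb (6.25%), against 7.82% of genes (6.75% of windows). In the 3 printed windows no match overlaps another. Such matches describe letters only.

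**Figure D4:**
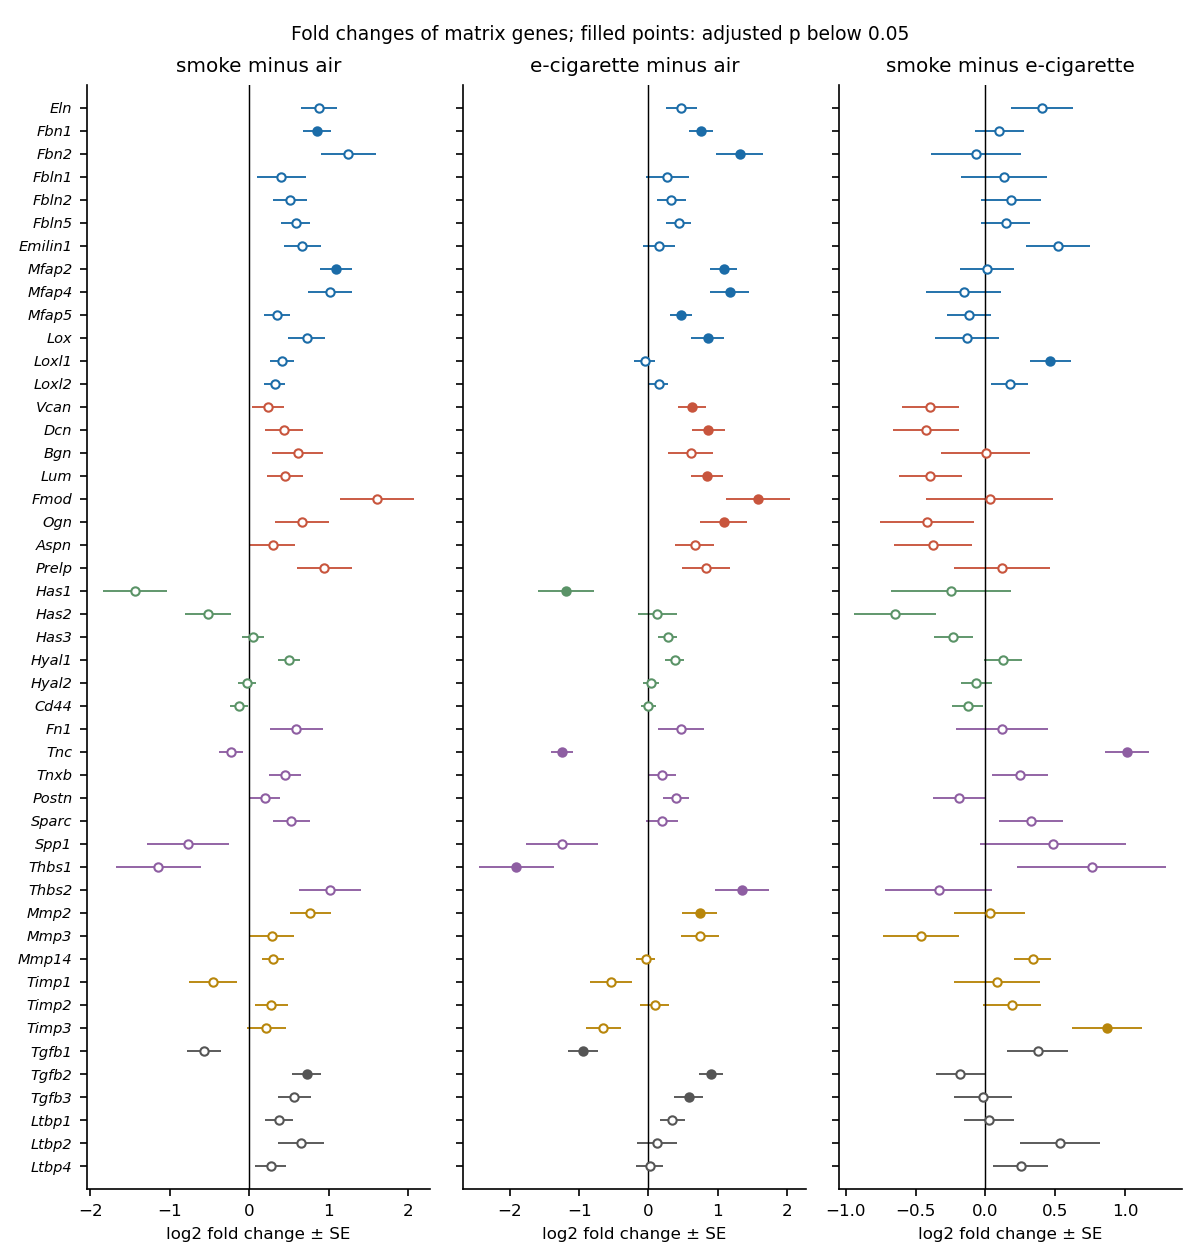
Log2 fold change ± SE of 47 matrix genes (rows, coloured by role) in the 3 comparisons, filled where the adjusted p is below 0.05. The first 2 panels share the air libraries; elastic fibre and proteoglycan genes lie right of 0 in both except Loxl1 in e-cigarette versus air (-0.055), and Tnc, Thbs1, Tgfb1 and Has1 lie left of 0.

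Other fits show which of these values change when marker levels are added as covariates or libraries are left out. Whether tissue content is the cause was not tested. With the cartilage markers as a covariate the median log2 fold change of the 47 genes was 0.04 after smoke and -0.03 after e-cigarette, and the genes called were 0 higher and 2 lower after smoke (Has1, Tgfb1) and 2 higher and 11 lower after e-cigarette. Of all genes 0.0855% were called higher and 0.137% lower after smoke in this fit, and 10.5% and 13.4% after e-cigarette. The 2 that stayed higher after e-cigarette were Mfap2 (0.63, adjusted p = 0.00978) and Tgfb2 (0.54, adjusted p = 0.0221). Tnc, Tgfb1, Thbs1 and Has1 stayed lower, at -1.36, -1.30, -2.66 and -1.89. With the endothelial markers as a covariate Tnc and Tgfb1 stayed lower, at -1.19 and -0.64, and Has1 and Thbs1, at -0.73 and -1.40, were not called (adjusted p = 0.167 and 0.0508). With the fibroblast markers as a covariate the medians were -0.0059 and -0.0085, no gene was called after smoke in edgeR, and after e-cigarette Mfap2, Mfap4 and Tgfb2 stayed higher while 9 genes were lower (9.10% and 10.5% of all genes). Of the cartilage markers themselves none was called after smoke in edgeR (13 of 20 with an unadjusted p below 0.05). After e-cigarette 8 were higher and 1 lower (40% and 5%, against 12.1% and 13.0% of all genes in the reported fit). Of the 25 fibroblast markers 6 were higher after e-cigarette (24%, against 12.1% of all genes) and none after smoke (9 with an unadjusted p below 0.05).

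Mfap2, Fbn1 and Tgfb2, the 3 genes called after smoke, were at 0.66, 0.64 and 0.35 with the cartilage covariate, with none called (adjusted p 0.0942 to 0.343). Leaving out air 4, 5 and 6, the libraries low in cartilage and acinar markers, left Fbn1 as the only gene higher after smoke, with Has1 and Tgfb1 lower (0.629% and 1.86% of all genes). Leaving out air 1, 2 and 3 gave 12 higher after smoke, among them Eln, Lox, Sparc and Mfap4, in a fit that called 7.41% of all genes higher. After e-cigarette aerosol Mfap2 and Tgfb2 were the only matrix genes called higher in both of these fits. Dcn, Lum, Ogn, Fbn1, Fbn2 and Thbs2 were called without air 4, 5 and 6 (10.8% of all genes) and not in the other. Lox, Mfap4, Tgfb3 and Vcan were called without air 1, 2 and 3 (11.6%) and not in the other. Fmod, Mfap5 and Mmp2 were called in neither. The summed level of the thyroid markers did not overlap between e-cigarette and the other groups, so thyroid content and e-cigarette exposure cannot be told apart in these libraries. Of the 14 markers 11 were lower and 1 higher after e-cigarette aerosol (78.6% and 7.14%, against 13.0% and 12.1% of all genes). Singly, 11 of the 14 lay wholly below air, against 6.00% of all genes. With the thyroid markers as a covariate no matrix gene was called after e-cigarette in edgeR, when 1 higher and 3 lower of all genes were called, and the values were -0.82 for Tnc, -1.09 for Tgfb1, 0.51 for Mfap2 and 0.57 for Tgfb2, each with a larger SE.

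**Figure D5:**
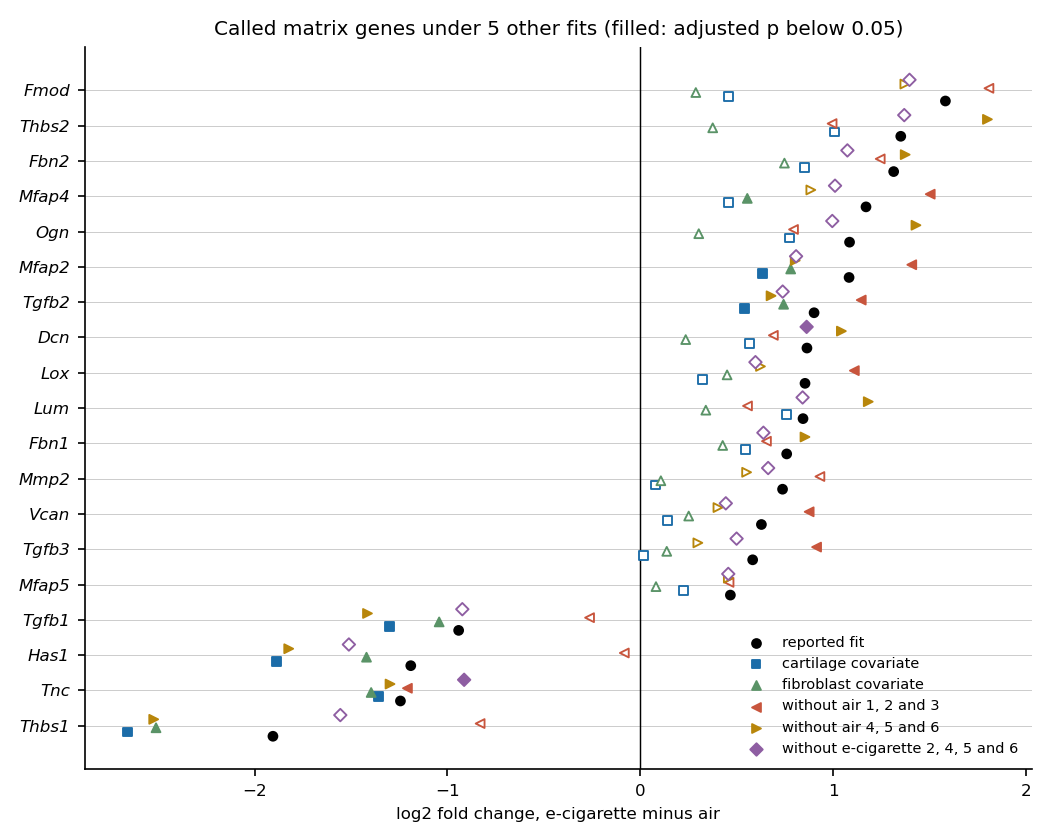
Log2 fold change of the 19 matrix genes called in e-cigarette versus air, in the reported fit and under 5 other fits (symbols), filled where the adjusted p is below 0.05. Tnc stays below -0.9 and filled under each of the 5, Mfap2 and Tgfb2 stay filled with either covariate, and the proteoglycans move toward 0 and lose the call with the covariates.

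Other genes of the same pathways were read from lists chosen by function. Of all genes 12.1% rose and 13.0% fell after e-cigarette aerosol, and 0.975% rose and 0.616% fell after smoke. After e-cigarette aerosol 20% of the elastic fibre and crosslinking list rose and 26.7% fell, and 38.9% and 16.7% of the proteoglycan list. For the hyaluronan list the shares were 28.6% and 7.14%, and for the glycoprotein list 24% and 20%. Of 15 further elastic fibre and crosslinking genes 3 rose and 4 fell after e-cigarette aerosol (median 0.23) and none was called after smoke in edgeR (5 with an unadjusted p below 0.05; median 0.20). Ltbp3, a latent TGF-beta binding protein gene, fell by 0.85 and Emilin2 fell by 1.66, while the fibulin gene Efemp1 rose by 0.38. Of 18 further proteoglycan genes tested 7 rose and 3 fell after e-cigarette aerosol (median 0.38) and Gpc3, a glypican, rose by 0.50 after smoke. The endothelial proteoglycan gene Esm1 fell by 2.15 and the syndecan gene Sdc2 by 0.81 after e-cigarette aerosol, where Gpc3 rose by 0.63. Of 14 further hyaluronan genes tested 4 rose and 1 fell after e-cigarette (median 0.15), among them the link protein gene Hapln3 (1.87) and the heavy chain gene Itih2 (1.35), and Hapln3 rose after smoke as well (1.59). Of 25 further glycoprotein genes 6 rose and 5 fell after e-cigarette (median 0.30), with the basement membrane ligand genes Npnt and Nid2 lower by 1.81 and 1.23 and the vitronectin gene Vtn higher by 0.90. After smoke Vtn (0.67) and Fndc1 (0.63) rose.

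Of 26 further metalloproteinase and inhibitor genes tested 3 rose and 5 fell after e-cigarette (19.2% fell; of all genes 12.1% rose and 13.0% fell; median 0.11). Mmp11 fell by 1.35 and the aggrecanase Adamts4 fell by 1.94, and none of the 26 was called after smoke in edgeR (10 with an unadjusted p below 0.05). Of 20 TGF-beta receptor and signalling genes 7 fell (35%, against 13.0% of all genes) and none rose after e-cigarette (median -0.26), where Tgfb1 also fell. The type I receptor Acvrl1, found mainly on endothelium, fell by 0.97, the inhibitory Smad6 by 1.01 and Itgb8, an integrin that activates latent TGF-beta, by 0.69. None of the 20 was called after smoke in edgeR (3 with an unadjusted p below 0.05). Between the exposures Acvrl1 was higher in smoke by 0.88, Ltbp3 by 0.96, Emilin2 by 1.32 and Npnt by 1.39. Endothelial markers were lower in e-cigarette for 2 of 12 (Emcn, Flt1) against air (16.7%, near the 13.0% of all genes). They were higher in smoke than e-cigarette for 4 of 12 (33.3%, against 10.4% of all genes), and their part in these values was not tested.

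Counts of some matrix genes could include reads of overlapping genes, since the strand setting of the counting is not given in the sources used here. In GENCODE M21, 19 of the 47 genes share exon bases with another gene. The shares are 50.8% for Hyal1 with Naa80, 21.3% for Timp3 with Syn3, 20.1% for Fbn1 with Gm9913 and 18.8% for Spp1 with Gm42793. Syn3 was at 1.64 to 1.90 CPM on group average against 266 to 486 CPM for Timp3, and Gm9913 at 0.0774 to 0.0925 CPM against 46.9 to 85.1 CPM for Fbn1. Tnc shares 2.26% of its exon bases, Tgfb2 2.14% and Thbs1 3.42%, and Tgfb1, Mfap2, Dcn and Lum share none.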

How the data were processed

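Raw read counts per gene for 18 libraries were deposited by the authors as whole numbers without normalization. Per the labels' protocols, libraries were prepared with an NEBNext Ultra kit, and per the submitters' processing notes reads were aligned with STAR and counted with featureCounts 1.5.0-p3 on GRCm38 (mm10). Strand setting and annotation release: not given in the sources used here. Each count column was assigned to a library by its label.

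Counts were fitted in edgeR 4.0.16 (R 4.3.3) with TMM factors, the filterByExpr filter, 1 model over the 3 groups and robust quasi-likelihood tests. Benjamini-Hochberg adjustment ran over all genes tested, and each SE is the log2 fold change divided by the square root of F. Intervals use the t quantile at the fit's degrees of freedom. DESeq2 1.42.0 and voom with quality weights (limma 3.58.1) were alternatives, beside other scalings, filters, covariates and left-out libraries. The thyroid and endothelium covariates were chosen after seeing the data. The edgeR step was tested on simulated data. Depth is given above as total counts per library, and the SE of each value carries its precision.

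The matrix genes and gene lists were chosen with earlier results of these data known. Full statistics go to the called genes of smallest p, at most 12 per comparison, and to 15 genes named by rule, and at most 3 called genes per pathway list are named. Each library pair within a group differed by more than sampling noise (15.4 to 134 for chi-square over its degrees of freedom).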

Additional observations from a re-analysis of the deposited data

Results flagged for a closer look

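In 9 of 141 sets of 6 libraries (47 genes in 3 groups), the highest library stood apart from the other 5 by a gap above Dixon's 95% critical value, as a share of the whole range. Chance alone flags about 1 in 20 such groups. Library air 3 accounts for 4 of the 9. It held 5.52 CPM of Has1 against 0.701 to 2.19 CPM in the other air libraries, 759 CPM of Thbs1 against 87.9 to 143 CPM, 204 CPM of the hyaluronan receptor gene Cd44 against 122 to 149 CPM, and 7.82 CPM of Timp1 against 1.75 to 3.13 CPM. Library air 1 held 75.1 CPM of Fmod against 27.6 to 43.3 CPM, and 39.9 CPM of Ltbp2 against 20.8 to 27.7 CPM. Library e-cigarette 4 held 16.1 CPM of Mfap2 against 7.73 to 10.2 CPM, and 20.3 CPM of the crosslinking enzyme gene Loxl2 against 10.9 to 13.6 CPM. Library smoke 5 held 22.5 CPM of Tgfb2 against 11.2 to 14.8 CPM.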

How the results depend on the processing

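Of the called genes, 1 of 3 after smoke (Mfap2), 12 of 19 after e-cigarette aerosol and 1 of 3 between the exposures (Tnc) kept their call in all 18 fits that left out 1 library. Genes higher after smoke, 3 as reported, numbered 9 in DESeq2, 10 in voom, 12 without air 1, 2 and 3, 1 without air 4, 5 and 6, and 0 with the cartilage, fibroblast or 4 composition covariates or at an adjusted p below 0.01. The share of all genes called higher, 0.975% as reported, was 2.82% in DESeq2, 4.34% in voom, 7.41% without air 1, 2 and 3, 0.629% without air 4, 5 and 6 and 0.0684% to 0.103% with those covariates. It was not computed at an adjusted p below 0.01. Leaving out 1 library gave 1 (air 5, air 6, smoke 3, smoke 4 or smoke 5) to 7 (e-cigarette 6), with 6 without air 1 and 5 without air 2. With 1 library left out, 0.181% (air 5) to 1.95% (air 2) of all genes were called higher. Matrix genes lower after smoke, 0 as reported, numbered 1 in DESeq2 and 2 with the cartilage, endothelium or 4 composition covariates or without air 4, 5 and 6. Of all genes 0.616% were called lower as reported, 2.97% in DESeq2 and 1.86% without air 4, 5 and 6. The share was 0.137%, 0.969% and 0.365% with the cartilage, endothelium and 4 composition covariates.

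Genes higher after e-cigarette aerosol, 15 as reported, numbered 9 without the low-count filter, 8 without air 1, 2 and 3 or air 4, 5 and 6, 5 at an adjusted p below 0.01, 3 with the fibroblast and 2 with the cartilage covariate, 1 without e-cigarette 2, 4, 5 and 6, and 0 with the thyroid or 4 composition covariates, and 9 (without e-cigarette 4) to 21 (without e-cigarette 6) with 1 library left out; without e-cigarette 5 the count was 10. Of all genes 12.1% were called higher as reported and 4.60% without the low-count filter. The share was 11.6% without air 1, 2 and 3, 10.8% without air 4, 5 and 6, 9.10% with the fibroblast and 10.5% with the cartilage covariate. It was 1.28% without e-cigarette 2, 4, 5 and 6, 0.00570% with the thyroid and 0.348% with 4 composition covariates. Without e-cigarette 4, 6 or 5 it was 9.84%, 11.1% and 9.16%. At an adjusted p below 0.01 no share of all genes was computed, higher or lower. Matrix genes lower, 4 as reported, numbered 11 with the cartilage and 9 with the fibroblast covariate, 2 with the endothelium or 4 composition covariates, in the fit of only the 2 groups or at an adjusted p below 0.01, 1 without air 1, 2 and 3 or e-cigarette 2, 4, 5 and 6, and 0 with the thyroid covariate. Of all genes 13.0% were called lower as reported, 13.4% with the cartilage, 10.5% with the fibroblast and 13.3% with the endothelium covariate. The share was 1.09% with 4 composition covariates, 0.0171% with the thyroid covariate and 11.3% in the fit of only the 2 groups. It was 11.3% without air 1, 2 and 3 and 2.43% without e-cigarette 2, 4, 5 and 6. The log2 fold change of Tgfb3 after e-cigarette aerosol changed sign with the 4 composition covariates (-0.025, adjusted p = 0.959). The cause of these shifts was not tested.

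Genes higher in smoke than e-cigarette, 3 as reported, numbered 7 with the cartilage covariate, 5 with the fibroblast covariate, in voom, in the fit of only the 2 groups or without air 1, 2 and 3, 1 with the endothelium covariate or at an adjusted p below 0.01, and 0 with the thyroid or 4 composition covariates or without e-cigarette 2, 4, 5 and 6, and 1 (without smoke 5 or e-cigarette 2) to 5 (without e-cigarette 4) with 1 library left out. Of all genes 10.4% were called higher as reported, 12.2% with the cartilage, 11.2% with the fibroblast and 6.56% with the endothelium covariate. The share was 13.6% in voom, 11.4% in the fit of only the 2 groups and 12.4% without air 1, 2 and 3. It was 0.772% without e-cigarette 2, 4, 5 and 6. None of the 17537 genes was called in either direction with the thyroid or 4 composition covariates. At an adjusted p below 0.01 the share of all genes was not computed. Matrix genes lower, 0 as reported, numbered 1 in voom, 1 with the cartilage and 2 with the fibroblast covariate, and 0 to 2 with 1 library left out (1 without smoke 5, 2 without e-cigarette 6). Of all genes 6.10% were called lower as reported, 9.24% in voom, 7.67% with the cartilage and 6.57% with the fibroblast covariate. Lower shares were 4.28% without smoke 5 and 4.79% without e-cigarette 6. Higher shares were 8.81% without smoke 5, 7.99% without e-cigarette 2 and 9.33% without e-cigarette 4. Same-numbered libraries did not deviate together (r -0.48 to 0.19 over 18 pairs, 4 above 0.1). With a replicate block the counts were 2 higher and 0 lower after smoke, 12 and 4 after e-cigarette aerosol and 2 and 0 between the exposures. The corresponding shares of all genes were 0.125% and 0.0969%, 10.5% and 11.4%, and 9.12% and 4.48%. Precision did not follow abundance alone, since the SE after e-cigarette aerosol was 0.55 for Thbs1, at a mean of 225 CPM in air, and 0.40 for Has1, at 2.08 CPM.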
